A study of Mus musculus with 8 samples.

Results

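The genes described here make and release glucose in the liver, store and break down glycogen, or carry the insulin and glucagon signals that set both. They were chosen by name, as a list of 37 mouse symbols matched to the Ensembl identifiers of the count table. Of the 37, 34 had a row among the 20894 genes of the table, and Crtc2, Got1 and Slc2a2 were not analysed here. Creb1 had too few counts for the test, with 1, 1, 1 and 1 counts in the POLR2G libraries, against 15, 1, 1 and 5 counts in the GFP control libraries, so 33 members were among the 10390 genes tested. 1 group of livers came from wild-type mice that had received AAV8-TBG-POLR2G, an adeno-associated virus whose liver-active TBG promoter (from the thyroxine-binding globulin gene) drives POLR2G, a subunit of RNA polymerase II. The control livers came from wild-type mice given the same virus type and promoter with green fluorescent protein (AAV8-TBG-GFP). All mice had been fasted in the daytime, so the comparison asks how these genes differ in a fasted liver with extra POLR2G. No fed or uninjected group was analysed here, and the sources used here do not give strain, sex, age, virus dose or the length of the fast.

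Each group has 4 libraries, made from poly-A RNA of whole liver. Library totals were 16362899 to 22165491 estimated counts in the POLR2G group and 14159056 to 18865284 in the GFP control group. Values below are CPM, the deposited estimated counts divided by TMM-scaled library sizes. Polr2g itself, which checks the labels, measured 2410 ± 153 CPM in the POLR2G libraries and 13.7 ± 1.002 CPM in the GFP control libraries (176-fold, edgeR adjusted p = 3.23e-10), and every library matched its group. Vector and endogenous Polr2g reads were not separated. Hepatocyte markers summed to 128165 to 144229 CPM in the POLR2G libraries and 137097 to 158010 CPM in the GFP control libraries, with all 10 above 0. Kupffer cell and macrophage markers summed to 280.3 to 529.9 CPM in the POLR2G libraries and 257 to 389.8 CPM in the GFP control libraries, and endothelial markers to 146 to 185 CPM in the POLR2G and 127 to 181 CPM in the GFP control libraries. The livers are mixtures, so fewer cells of a type and less RNA per cell cannot be told apart. Since no label says which animal a library came from, p-values here refer to the spread among libraries, part of which may be technical.

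During a fast the liver first releases glucose from glycogen and then makes it from lactate, alanine and glycerol. Glucagon, through its receptor, cAMP and the factor CREB with the coactivators CRTC2 and PGC-1α, raises the genes of the rate-limiting steps, among them Pck1 and G6pc. Insulin, through its receptor, the IRS adaptors, PI3-kinase and AKT2, does the opposite: it stores glucose as glycogen and keeps the forkhead factor FOXO1 out of the nucleus, which lowers Pck1, G6pc and Igfbp1.

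The upstream sequences of 3 members hold short elements through which these signals are known to act, and were chosen because Ppargc1a had separate groups, Pck1 is a textbook target of both hormones and Igfbp1 varied widely between control livers. Each is the 250 bases before the RefSeq start of the gene (GRCm38.p6), written 5′ to 3′ along the gene. Capitals mark TGACG, the core of the cAMP response element, and TGTTT, the core of the forkhead element, on either strand (on the opposite strand they read CGTCA and AAACA). These cores do not overlap in the sequences shown. The first is from chr5:51567726-51567975, minus strand, the second from chr2:173152823-173153072, plus strand and the third from chr11:7197537-7197786, plus strand.
Ppargc1a: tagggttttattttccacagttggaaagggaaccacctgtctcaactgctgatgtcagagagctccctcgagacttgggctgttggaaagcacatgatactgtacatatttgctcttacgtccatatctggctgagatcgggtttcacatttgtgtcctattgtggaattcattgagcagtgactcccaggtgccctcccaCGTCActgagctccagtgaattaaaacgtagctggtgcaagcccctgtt
Pck1: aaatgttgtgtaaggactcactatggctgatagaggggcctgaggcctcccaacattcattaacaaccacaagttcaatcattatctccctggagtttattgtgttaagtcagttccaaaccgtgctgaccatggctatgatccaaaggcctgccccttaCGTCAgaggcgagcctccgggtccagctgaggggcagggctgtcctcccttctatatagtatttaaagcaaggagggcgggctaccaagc
Igfbp1: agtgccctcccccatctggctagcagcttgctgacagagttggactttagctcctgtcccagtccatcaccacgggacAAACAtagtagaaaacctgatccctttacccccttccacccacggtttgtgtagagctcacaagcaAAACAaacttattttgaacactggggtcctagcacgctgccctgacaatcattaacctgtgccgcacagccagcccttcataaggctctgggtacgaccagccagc
Ppargc1a and Pck1 hold the cAMP core once each, from 49 and 90 bases before the start. Igfbp1 holds the forkhead core at 172 and 106 bases before its start. Of all 32851 RefSeq upstream windows of that length 17.8% hold TGACG and 46.4% hold TGTTT. Of the 45 windows of 30 tested members 19 (42.2%) hold TGACG and 19 (42.2%) hold TGTTT. Counted by gene, with a match in any window, 15 of 30 members hold TGACG and 15 hold TGTTT, against 5347 (19.8%) and 13505 of all 27025 genes with a window. A match says only that these letters are there.

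No member passed the test over all genes. The quasi-likelihood test of edgeR called 0 of 33 members at an adjusted p under 0.05, where 4 of 10390 genes (0.0385%) were called (0.0192% higher and 0.0192% lower in the POLR2G libraries). DESeq2 called 0 of 33 members, where it called 135 of 10390 genes. With limma-voom 0 of 33 members and 3 of 10390 genes were called. At an unadjusted edgeR p under 0.05 there were 5 of 33 members (15.2%, against 8.3% of all genes). Of these 5, 4 were lower in the POLR2G libraries (12.1%, where the share of all genes was 4.1%) and 1 was higher (4.2% of all genes). The lower 4 were Ppargc1a, Pfkfb1, Gbe1 and Sesn1, and the higher 1 was Cebpa. Without POLR2G replicate 4 the count was 3. The mean was lower in the POLR2G libraries for 23 of 33 members (69.7%, against 50.7% of all genes), with a median log2 fold change of −0.11, against −0.0031 over all genes. For 4 of 33 members (12.1%, against 5.51% of all genes) the groups did not overlap, 3 of them lower (2.68% of all genes) and 1 higher (2.83%). Members were not independent of each other, so these shares describe the list only. All 5 members under the unadjusted threshold have several coding transcripts in the GENCODE M21 annotation. Of the 10 tested members with 1 coding transcript, the mean of 7 was lower (median log2 fold change −0.11) and 0 had an unadjusted p under 0.05. Of all 2973 tested genes with 1 coding transcript, the mean of 1488 was lower, and 130 lower and 142 higher ones had an unadjusted p under 0.05.

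**Figure D1:**
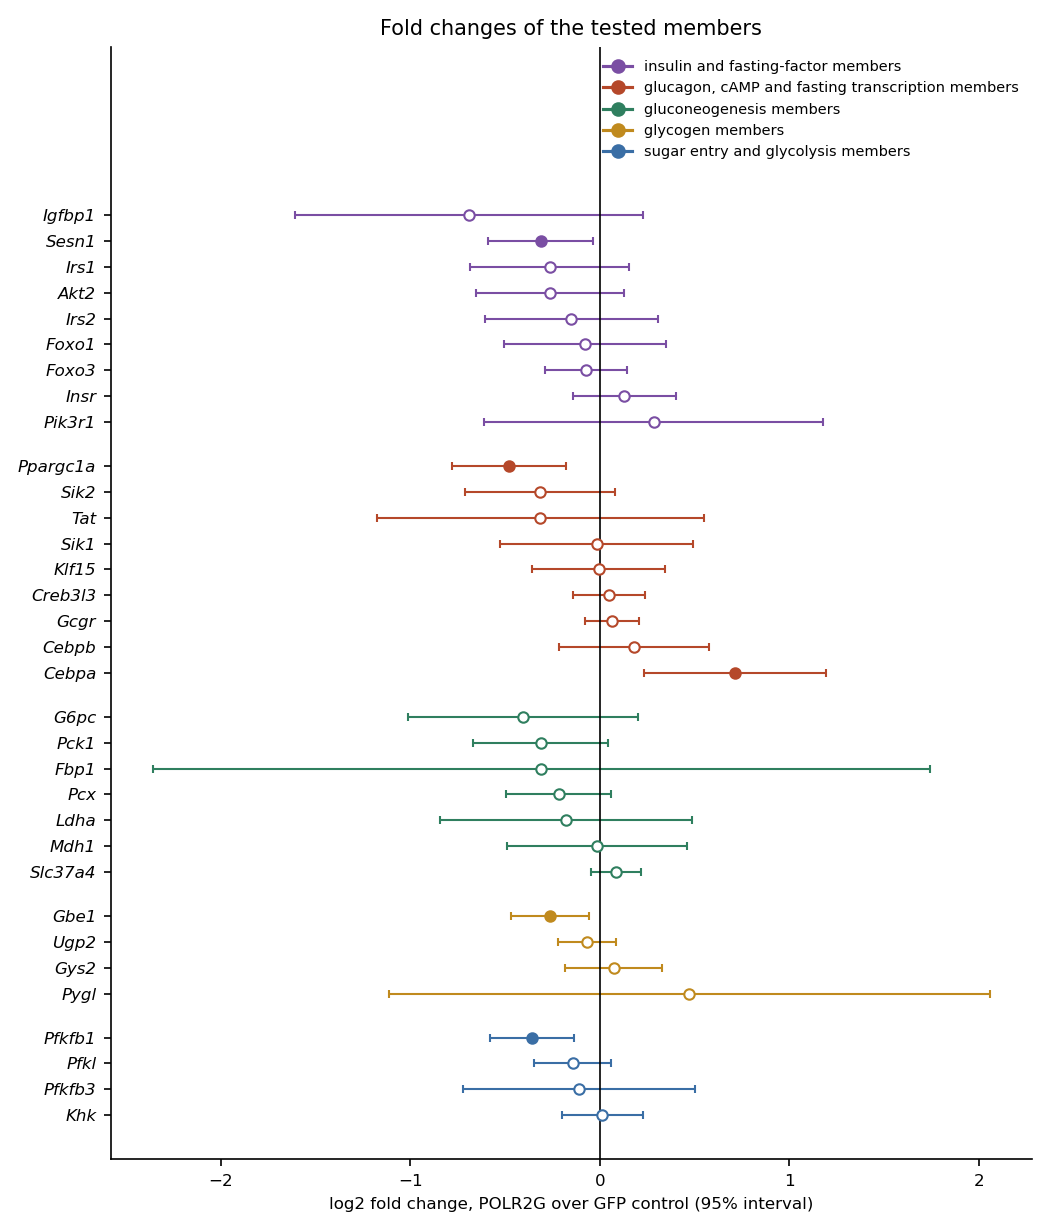
Log2 fold change of each tested member, POLR2G over GFP control, with its 95% interval from the edgeR fit. Members are grouped by role, filled points have an unadjusted p under 0.05, and no member passed over all genes; Fbp1 and Pygl, with few counts, have the widest intervals.

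Of the 9 tested insulin signalling genes, 7 (77.8%, against 50.7% of all genes) had a lower mean in the POLR2G libraries (median log2 fold change −0.15). Insr and Pik3r1 had a higher one, and 1, Sesn1, had an unadjusted p under 0.05 (11.1%, against 8.3% of all genes). Values in every library are given in the order POLR2G replicates 1, 3 and 4 and the unnumbered POLR2G library, then GFP control replicates 1 to 4. Insr, the insulin receptor, measured 195, 232, 208 and 180.1 CPM in the POLR2G libraries, against 168, 156, 217 and 204 CPM in the GFP control libraries. The groups overlapped between 180.1 and 217 CPM, and GFP control replicates 1 and 2 lay below every POLR2G library (edgeR log2 fold change 0.13, SE 0.12, adjusted p = 0.842). Irs1, an adaptor that insulin's receptor phosphorylates, measured 13.9, 14.3, 12.8 and 12.3 CPM in the POLR2G libraries, against 10.8, 15.1, 21.5 and 16.9 CPM in the GFP control libraries. The POLR2G values lay within the wider GFP control range (edgeR log2 fold change −0.27, SE 0.19, adjusted p = 0.772). Its log2 fold change was −0.097 without GFP control replicate 3 and −0.41 without GFP control replicate 1. Irs2, the other main adaptor in liver and itself raised in fasting, measured 25.7, 18.4, 24.8 and 24.5 CPM in the POLR2G libraries, against 33.1, 20.2, 32.1 and 18.6 CPM in the GFP control libraries (edgeR log2 fold change −0.15, SE 0.20, adjusted p = 0.905). Its control libraries formed a high pair, replicates 1 and 3, and a low pair, replicates 2 and 4, and the POLR2G values lay between 18.4 and 25.7 CPM. Without GFP control replicate 1, GFP control replicate 3 or POLR2G replicate 3 its log2 fold change was −0.010, −0.035 or −0.052.

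Igfbp1, a secreted binding protein for insulin-like growth factors that falls quickly when insulin rises, showed the same pairs more widely. It measured 106, 171, 157 and 116 CPM in the POLR2G libraries, against 253, 109, 414 and 110.5 CPM in the GFP control libraries. The highest and the lowest GFP control library differed 3.81-fold, against 1.62-fold in the POLR2G group, and the POLR2G values lay from just below the 2 low control libraries to well below the 2 high ones (edgeR log2 fold change −0.69, SE 0.41, adjusted p = 0.729, 95% interval −1.61 to 0.23). Without GFP control replicate 3 the log2 fold change was −0.20, against −0.69 with all libraries. The mean difference rested largely on that library.

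Foxo1, the forkhead factor that insulin restrains, measured 61.8, 93.3, 83.0 and 60.3 CPM in the POLR2G libraries, against 64.1, 63.9, 102 and 84.7 CPM in the GFP control libraries, with overlapping groups (edgeR log2 fold change −0.078, SE 0.19, adjusted p = 0.954). Foxo3, its relative, varied less, from 85.5 to 99.4 CPM in the POLR2G libraries and 84.4 to 112 CPM in the GFP control libraries (−0.075, SE 0.096). Sesn1, a sestrin that dampens growth signalling through mTORC1, measured 12.1, 12.6, 10.1 and 11.4 CPM in the POLR2G libraries, against 13.3, 12.5, 15.3 and 16.3 CPM in the GFP control libraries. Its groups touched at 12.6 CPM in POLR2G replicate 3 and 12.5 CPM in GFP control replicate 2, and otherwise the POLR2G libraries lay lower (1.24-fold; log2 fold change −0.31, SE 0.12, edgeR unadjusted p = 0.0317, adjusted p = 0.530; exact two-sided permutation p = 0.0571). Akt2, the kinase that carries insulin's metabolic signal in liver, ranged from 13.3 to 22.1 CPM in the POLR2G libraries and 16.7 to 21.7 CPM in the GFP control libraries (−0.26, SE 0.17). Its POLR2G replicates lay below every GFP control library and the unnumbered POLR2G library, at 22.1 CPM, lay above them all. Without that library the log2 fold change of Akt2 was −0.46, with an unadjusted p under 0.05 and an edgeR adjusted p of 0.44. Pik3r1, the regulatory subunit of PI3-kinase, had only 9 to 31 counts in a library (0.28, SE 0.40).

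**Figure D2:**
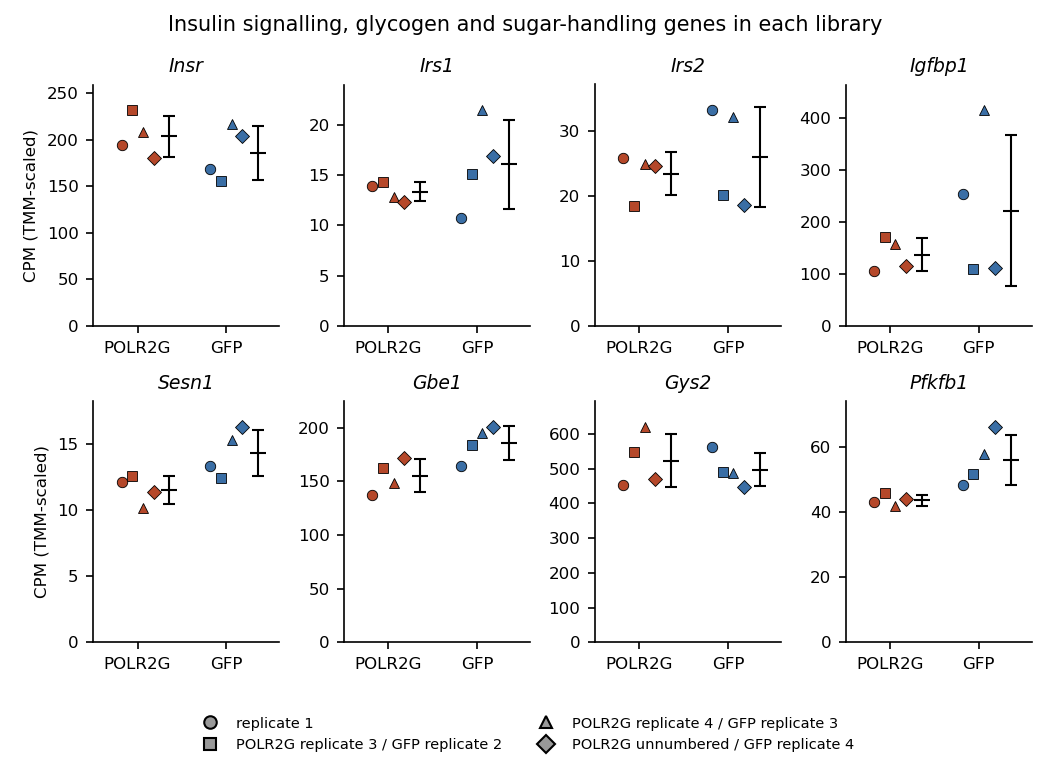
CPM of 8 insulin signalling, glycogen and sugar-handling members in each library, POLR2G at the left and GFP control at the right of each panel, with the group mean and SD as a bar (n = 4 each). The Pfkfb1 groups do not overlap, while Igfbp1 reaches 414 CPM in GFP control replicate 3 and stays between 106 and 171 CPM in the POLR2G libraries.

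In the glucagon and fasting transcription group the receptor differed little and the coactivator gene Ppargc1a had a lower mean. Of 11 genes 9 were tested, of which 5 were lower and 4 higher on average in the POLR2G libraries (median log2 fold change −0.0068). Gcgr, the glucagon receptor, measured 175, 184, 183 and 171 CPM in the POLR2G libraries, against 164, 183, 170.3 and 164 CPM in the GFP control libraries. The groups overlapped and the estimate was among the most precise of the list (edgeR log2 fold change 0.065, SE 0.063, adjusted p = 0.846, 95% interval −0.076 to 0.21), and it was −0.014 with library totals as the only scaling. Ppargc1a (ENSMUSG00000029167; GRCm38 chromosome 5, 51454250 to 51567726, minus strand) encodes PGC-1α, a coactivator that glucagon induces and that drives gluconeogenic genes. It measured 12.7, 14.1, 16.0 and 11.8 CPM in the POLR2G libraries, against 17.2, 16.6, 22.2 and 20.4 CPM in the GFP control libraries. All 4 POLR2G libraries lay below all 4 GFP control libraries. The difference was 1.39-fold (edgeR log2 fold change −0.48, SE 0.13, adjusted p = 0.36, unadjusted p = 0.00552, 95% interval −0.78 to −0.18). An exact two-sided permutation test over the 70 arrangements of the libraries gave p = 0.0286, the smallest that 4 against 4 allow. Separate groups always give this value, so it only restates the separation. It was reached by 4 of the 33 members tested in this way, and 5.51% of all genes had separate groups. The log2 fold change stayed between −0.56 and −0.40 when each library was left out in turn, with adjusted p from 0.102 to 0.643 over all alternatives.

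Cebpa (ENSMUSG00000034957; GRCm38 chromosome 7, 35119293 to 35121928, plus strand) encodes C/EBPα, a factor that liver needs to express gluconeogenic genes after birth. It was the member with the largest higher value, at 99.9, 79.4, 54.9 and 69.8 CPM in the POLR2G libraries, against 37.5, 65.0, 40.7 and 42.6 CPM in the GFP control libraries. POLR2G replicate 4 and GFP control replicate 2 overlapped, and the other libraries did not (1.64-fold; edgeR log2 fold change 0.71, SE 0.21, adjusted p = 0.388, unadjusted p = 0.00818; exact permutation p = 0.0571). Over all alternatives its adjusted p ran from 0.0639 to 0.671. Cebpb, the related factor that cAMP induces, ranged from 121 to 172 CPM in the POLR2G libraries and 109 to 184 CPM in the GFP control libraries (0.18, SE 0.18).

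The salt-inducible kinases SIK1 and SIK2 phosphorylate CRTC2 and so end the glucagon response. Sik2 measured 6.94, 6.20, 6.77 and 4.43 CPM in the POLR2G libraries, against 7.00, 8.52, 7.02 and 7.80 CPM in the GFP control libraries. All POLR2G libraries lay below all GFP control libraries, by as little as 6.94 against 7.00 CPM. The unnumbered POLR2G library was lowest (edgeR log2 fold change −0.32, SE 0.18, adjusted p = 0.707, unadjusted p = 0.106). The exact permutation p was 0.0286, as for any separate groups. Without the unnumbered library the log2 fold change of Sik2 was −0.19. Sik1, which cAMP itself induces, did not separate the groups, at 17.6 to 31.9 CPM in the POLR2G libraries and 19.0 to 37 CPM in the GFP control libraries (−0.017, SE 0.23). Creb3l3, a membrane-bound factor active in fasting, ranged from 366 to 410.1 CPM in the POLR2G libraries and 333 to 427 CPM in the GFP control libraries (0.046, SE 0.084). Klf15, a factor for amino acid use in gluconeogenesis, ranged from 110.5 to 180.4 CPM in the POLR2G libraries and 129 to 177 CPM in the GFP control libraries (−0.0068, SE 0.16). Tat, the tyrosine aminotransferase that glucocorticoids and glucagon induce, had 46 to 141 counts and ranged from 2.22 to 8.25 CPM in the POLR2G libraries and 4.06 to 7.00 CPM in the GFP control libraries (−0.31, SE 0.38).

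**Figure D3:**
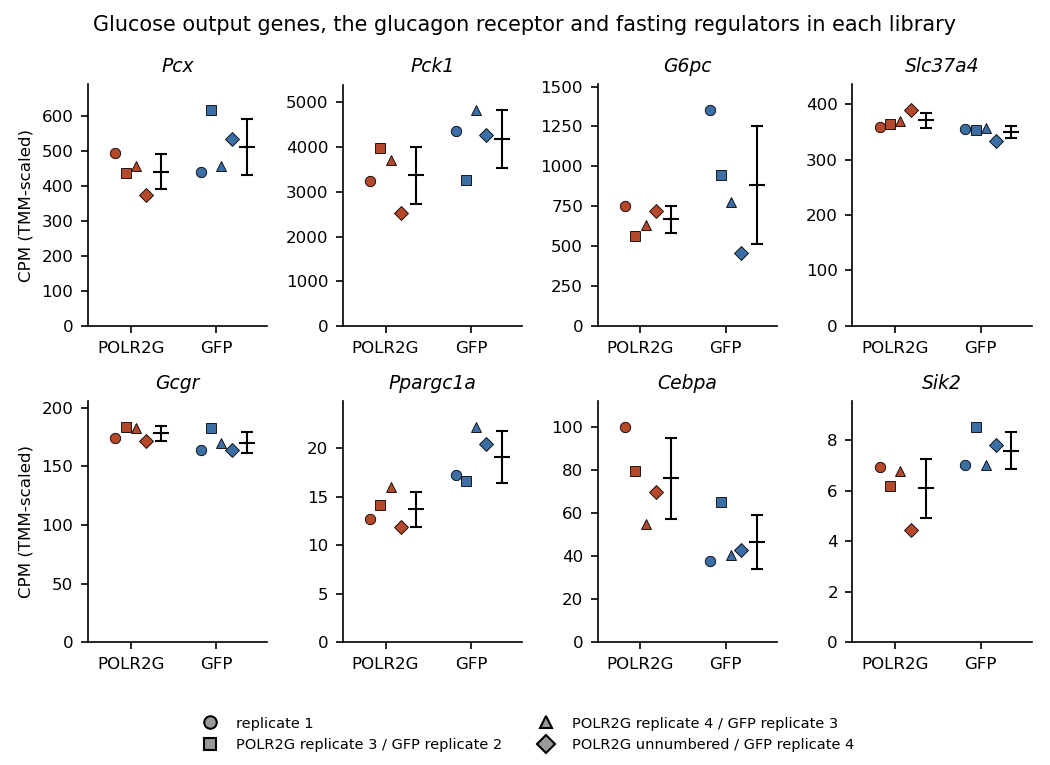
CPM of 8 members of glucose output and its control in each library, POLR2G at the left and GFP control at the right of each panel, with the group mean and SD as a bar (n = 4 each). Ppargc1a and Sik2 lie lower and Slc37a4 slightly higher in every POLR2G library, while Pck1 and G6pc overlap.

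Among gluconeogenesis genes Pck1, G6pc and Pcx had lower means in the POLR2G libraries without passing the test. Of 8 genes 7 were tested, and 6 of them (85.7%, against 50.7% of all genes) were lower on average in the POLR2G libraries. The median log2 fold change was −0.22. Of those 6, Mdh1 was close to 0 (−0.014), and Fbp1 and Ldha had few counts. Of the 7 tested, 0 had an unadjusted p under 0.05 in edgeR. Pck1 (ENSMUSG00000027513; GRCm38 chromosome 2, 173153048 to 173159273, plus strand), the cytosolic phosphoenolpyruvate carboxykinase that commits carbon to glucose, measured 3251, 3986, 3702 and 2532 CPM in the POLR2G libraries, against 4367, 3269, 4822 and 4278 CPM in the GFP control libraries. The highest 3 values were GFP control libraries and the lowest was the unnumbered POLR2G library. However, POLR2G replicates 3 and 4 lay above GFP control replicate 2 (edgeR log2 fold change −0.31, SE 0.16, adjusted p = 0.654, 95% interval −0.67 to 0.041). G6pc (ENSMUSG00000078650; GRCm38 chromosome 11, 101367561 to 101377903, plus strand), the catalytic subunit of glucose-6-phosphatase for the last step, measured 750.4, 566, 634 and 718 CPM in the POLR2G libraries, against 1351, 946, 777 and 458 CPM in the GFP control libraries. The GFP control values spread 2.95-fold and enclosed all POLR2G values, which spread 1.33-fold (edgeR log2 fold change −0.40, SE 0.27, adjusted p = 0.760). Without GFP control replicate 1 the log2 fold change of G6pc was −0.12, and without GFP control replicate 4 it was −0.62. Pcx, the mitochondrial pyruvate carboxylase of the first step, measured 494, 436, 456 and 375 CPM in the POLR2G libraries, against 440.1, 616, 457 and 534 CPM in the GFP control libraries. Its groups overlapped, with the lowest value in the unnumbered POLR2G library and the highest in GFP control replicate 2 (edgeR log2 fold change −0.22, SE 0.12, adjusted p = 0.711). Without GFP control replicate 2 the log2 fold change of Pcx was −0.12, and in the 6 libraries with shared replicate numbers it was −0.047.

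Slc37a4 carries glucose-6-phosphate into the endoplasmic reticulum, where G6PC acts. It measured 359, 365, 369.5 and 389 CPM in the POLR2G libraries, against 354, 352, 356 and 333 CPM in the GFP control libraries. Every POLR2G library lay above every GFP control library, by a mean of 1.06-fold (edgeR log2 fold change 0.086, SE 0.059, adjusted p = 0.766, unadjusted p = 0.177). Its exact permutation p was 0.0286, unadjusted, as for any separate groups. Its mean differed in the direction opposite to those of Pck1 and G6pc, but none of these differences passed the test. With library totals as the only scaling the log2 fold change of Slc37a4 was 0.011. Mdh1, a malate dehydrogenase that moves carbon and reducing power out of mitochondria, ranged from 20.7 to 30.3 CPM in the POLR2G libraries and 17.5 to 31.7 CPM in the GFP control libraries (−0.014, SE 0.21). Ldha, a lactate dehydrogenase subunit, had 39 to 87 counts (−0.18, SE 0.29). Fbp1, the fructose-1,6-bisphosphatase of gluconeogenesis, had 16, 1, 1 and 11 counts in the POLR2G libraries, against 7, 16, 9 and 1 counts in the GFP control libraries. These counts are too few to show a difference of ordinary size (95% interval −2.36 to 1.74). Liver is known to express Fbp1, Pygl, Tat and Ldha well, and GENCODE M21 lists 2 coding transcripts for Fbp1, Pygl and Tat and 12 for Ldha. Few counts also went to Creb1 (1 to 15, with 6 coding transcripts) and Pik3r1 (9 to 31, with 4). Of the other pathway genes, Gpd1 and Gsk3a had 0 counts in every library. Whether the deposited values cover all transcripts of these genes was not tested.

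Of the 4 glycogen genes 2 had a lower and 2 a higher mean in the POLR2G libraries (median log2 fold change 0.0028). Of the 4, 1, Gbe1, had an unadjusted p under 0.05, against 8.3% of all genes. Gys2, the liver glycogen synthase, measured 452, 549, 620.2 and 471 CPM in the POLR2G libraries, against 562, 490.4, 489 and 447 CPM in the GFP control libraries, with overlapping groups (edgeR log2 fold change 0.074, SE 0.11, adjusted p = 0.922, 95% interval −0.18 to 0.33). Gbe1 (ENSMUSG00000022707; GRCm38 chromosome 16, 70313949 to 70569716, plus strand), the branching enzyme that makes glycogen compact, measured 137, 163, 149 and 172 CPM in the POLR2G libraries, against 165, 184, 195 and 201 CPM in the GFP control libraries. POLR2G values were lower except that the unnumbered POLR2G library lay above GFP control replicate 1 (edgeR log2 fold change −0.26, SE 0.092, adjusted p = 0.479, unadjusted p = 0.0184; exact permutation p = 0.0571). Ugp2, which makes UDP-glucose for glycogen, ranged from 175 to 194 CPM in the POLR2G libraries and 185 to 214 CPM in the GFP control libraries (−0.068, SE 0.069). Pygl, the liver phosphorylase that glucagon activates to release glucose, had 281, 10, 63 and 127 counts in the POLR2G libraries, against 87, 129, 43 and 58 counts in the GFP control libraries. POLR2G replicate 1 held 281 of them and POLR2G replicate 3 held 10, so the higher mean had a wide interval (log2 fold change 0.47, SE 0.71, 95% interval −1.12 to 2.06).

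Among genes of sugar handling Pfkfb1 (ENSMUSG00000025271; GRCm38 chromosome X, 150588229 to 150643878, plus strand) had separate groups and a lower mean in the POLR2G libraries. It encodes the liver bifunctional enzyme that sets fructose-2,6-bisphosphate, the metabolite that favours glycolysis and blocks gluconeogenesis, and glucagon switches the enzyme by phosphorylation. Pfkfb1 measured 43.1, 46.0, 42.1 and 44.0 CPM in the POLR2G libraries, against 48.6, 51.8, 57.9 and 66.3 CPM in the GFP control libraries. The 4 POLR2G libraries stayed within 4 CPM of each other and below all GFP control libraries, which spread from 48.6 to 66.3 CPM (1.28-fold; edgeR log2 fold change −0.36, SE 0.099, adjusted p = 0.359, unadjusted p = 0.00513, 95% interval −0.58 to −0.14; exact permutation p = 0.0286). Pfkl, the liver phosphofructokinase, ranged from 32.6 to 35.5 CPM in the POLR2G libraries and 33.0 to 43.5 CPM in the GFP control libraries (−0.14, SE 0.090). Pfkfb3, a relative of Pfkfb1 with high kinase activity, ranged from 30.8 to 63.6 CPM in the POLR2G libraries and 31.1 to 75.1 CPM in the GFP control libraries (−0.11, SE 0.27). Khk, the ketohexokinase that starts fructose use, differed little, at 411 to 474 CPM in the POLR2G libraries and 368 to 478 CPM in the GFP control libraries (0.012, SE 0.095, 95% interval −0.20 to 0.23).

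The members varied between libraries as well as between groups. Within the GFP control group, replicate 3 held the highest value of 13 of 33 members (39.4%, against 27.7% of all genes), among them Igfbp1, Sik1, Cebpb, Ppargc1a, Pck1, Foxo1 and Irs1. In the POLR2G group the unnumbered library held the lowest value of 14 members, among them Pck1, Pcx, Ppargc1a, Sik1, Sik2 and Foxo1. Over all genes it was lowest for 26.7%. Counts of major urinary protein genes, which vary with sex and growth hormone, made up 6.89% of GFP control replicate 3 and 9.59% to 16.1% of the other GFP control libraries, against 12.5% to 18.0% in the POLR2G libraries. Their part in the member values was not tested. Without GFP control replicate 3, Ppargc1a had a log2 fold change of −0.40, Pck1 −0.24 and Pfkfb1 −0.345. Leaving out GFP control replicate 4 instead gave −0.27 for Pfkfb1. Without the unnumbered POLR2G library the log2 fold change of Pck1 was −0.20, against −0.31 with all libraries.

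**Figure D4:**
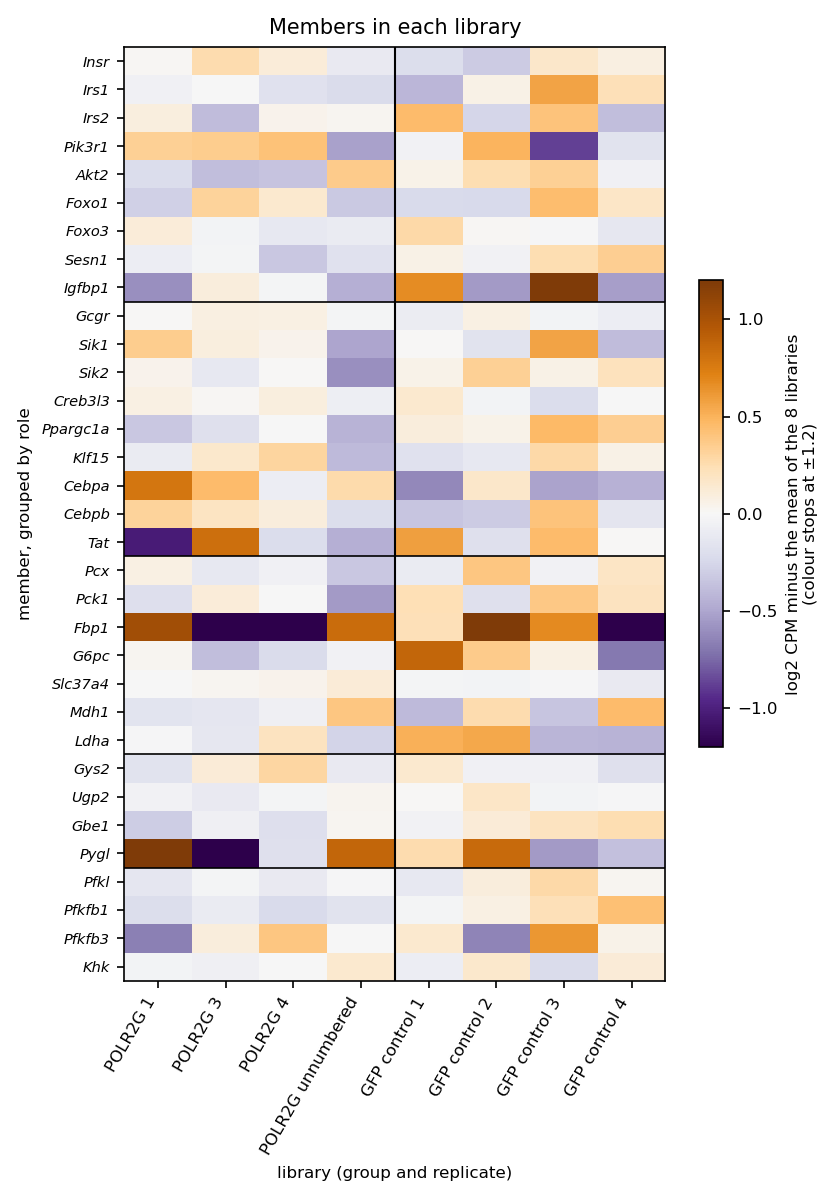
Log2 CPM of each tested member in each library minus its mean over the 8 libraries, with POLR2G libraries in the left 4 columns, GFP control libraries in the right 4 and members grouped by role. Igfbp1 is high in GFP control replicates 1 and 3 and Cebpa is high in POLR2G replicates 1 and 3, while Gcgr, Slc37a4, Ugp2 and Khk are nearly level; Fbp1 and Pygl, with few counts, vary most.

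Other genes of the same pathways gave 0 calls over all genes tested in edgeR, in 5 lists. Of 40 other glycolysis and gluconeogenesis genes 31 were tested, of which 21 lay lower in the POLR2G libraries on average (median log2 fold change −0.072). Of all genes 50.7% lay lower. An unadjusted p under 0.05 was found for 6, 3 in each direction, against 8.3% of all genes (4.2% higher and 4.1% lower). Gk, the glycerol kinase that brings glycerol into gluconeogenesis, measured 51.6, 62.5, 48.9 and 65.3 CPM in the POLR2G libraries, against 65.4, 87.5, 96.4 and 108 CPM in the GFP control libraries. The groups did not overlap, by 65.3 against 65.4 CPM at the closest (edgeR log2 fold change −0.65, SE 0.16, adjusted p = 0.270). Gpt, the alanine aminotransferase that feeds alanine carbon to pyruvate, measured 354, 357, 353 and 345 CPM in the POLR2G libraries, against 263, 277, 276 and 293 CPM in the GFP control libraries, with every POLR2G library above every control (edgeR log2 fold change 0.35, SE 0.059, adjusted p = 0.131). Ldhd, a D-lactate dehydrogenase, went the same way, at 107 to 132 CPM in the POLR2G libraries and 83.5 to 100.3 CPM in the GFP control libraries (edgeR log2 fold change 0.39, SE 0.090, adjusted p = 0.252). Lower means of Gk and Pck1 thus stood beside higher means of Gpt and Ldhd.

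Among 38 tested of 47 other insulin signalling genes 22 had a higher mean (median log2 fold change 0.032). An unadjusted p under 0.05 was found for 2, 1 in each direction, against 8.3% of all genes. Socs3, a feedback inhibitor that also binds the insulin receptor, measured 9.35, 9.59, 14.3 and 8.62 CPM in the POLR2G libraries, against 5.37, 5.28, 4.51 and 5.69 CPM in the GFP control libraries. Every POLR2G library lay above every GFP control library (2.01-fold; edgeR log2 fold change 1.01, SE 0.19, adjusted p = 0.164). Immediate early genes summed to 328 to 567 CPM in the POLR2G libraries and 276 to 358 CPM in the GFP control libraries, and their part in the Socs3 value was not tested. Ptpn1, the phosphatase that dephosphorylates the insulin receptor, had 20.6 to 25.3 CPM in the POLR2G libraries and 25.7 to 30.3 CPM in the GFP control libraries (edgeR log2 fold change −0.29, SE 0.092, adjusted p = 0.437), and Foxk2, a forkhead factor of insulin signalling, had 20.8 to 28.0 CPM in the POLR2G libraries and 24.1 to 29.6 CPM in the GFP control libraries (edgeR log2 fold change −0.26, SE 0.12, adjusted p = 0.601).

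Of 43 other glucagon and cAMP genes 28 were tested (median log2 fold change −0.024) and 1 had an unadjusted p under 0.05, against 8.3% of all genes. This was Prkar1a, a regulatory subunit that holds protein kinase A inactive, at 162, 176, 171 and 183 CPM in the POLR2G libraries, against 201, 188, 192 and 189 CPM in the GFP control libraries. The groups were separate but close (edgeR log2 fold change −0.15, SE 0.062, adjusted p = 0.541). Akap1, which anchors that kinase at mitochondria, gave 0.51, SE 0.29, and Pde3b, a phosphodiesterase through which insulin lowers cAMP, gave −0.11, SE 0.061 as log2 fold changes. Of 27 other glycogen genes 16 were tested and 0 had an unadjusted p under 0.05, with a median log2 fold change of −0.095. The smallest p values there belonged to Ppp1r3e (−0.95, SE 0.45) and Ppp1r3g (−0.94, SE 0.56), which target a phosphatase to glycogen, and to its catalytic subunit Ppp1ca (0.082, SE 0.068). Of 38 glucocorticoid and other fasting transcription factor genes 31 were tested (median log2 fold change 0.055). An unadjusted p under 0.05 was found for 2, 1 in each direction, against 8.3% of all genes. Foxa1, a pioneer factor of liver genes, ranged from 17.6 to 32.3 CPM in the POLR2G libraries and 18.1 to 20.8 CPM in the GFP control libraries (edgeR log2 fold change 0.42, SE 0.17, adjusted p = 0.541), and Foxa2, its relative, from 20.5 to 33.5 CPM in the POLR2G libraries and 16.5 to 24.5 CPM in the GFP control libraries (edgeR log2 fold change 0.37, SE 0.17, adjusted p = 0.614). Zbtb20, a zinc finger repressor, went the other way, at 148 to 229.9 CPM in the POLR2G libraries and 159.8 to 288 CPM in the GFP control libraries (edgeR log2 fold change −0.44, SE 0.19, adjusted p = 0.595).

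**Figure D5:**
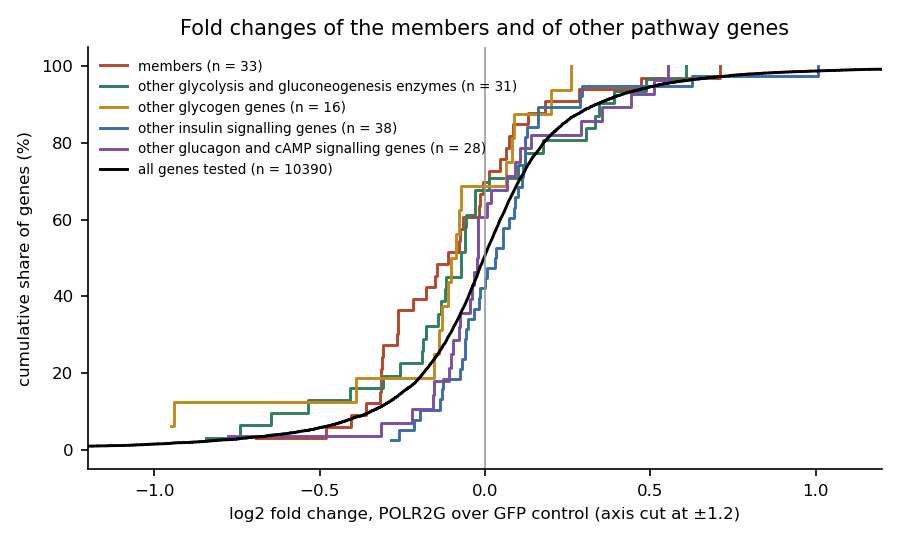
Cumulative share of genes against log2 fold change, POLR2G over GFP control, for the 33 tested members, 4 lists of other pathway genes and all 10390 genes tested. Around 0 the member curve lies left of the curve of all genes (medians −0.11 and −0.0031), and the other insulin signalling genes lie slightly right of it (median 0.032).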

How the data were processed

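RNA was taken from snap-frozen mouse livers, and poly-A-selected, strand-specific libraries were made, per the labels' protocols. Whether strand was used in counting is not given in the sources used here. The deposited table holds estimated counts per gene as whole numbers, not normalized, and the submitters' processing notes name Salmon 1.2.1 and the builds GRCm38 and mm10. How transcripts were combined and values rounded is not given in the sources used here. Symbols came from a table of Ensembl identifiers and names, matched for 20817 of 20894 identifiers, and gene coordinates and transcript numbers from GENCODE M21. Columns were matched to samples by library name; for 1 POLR2G column the number had no match in the labels, and it was used as an unnumbered library. Chi-square values per degree of freedom between libraries of 1 group were 13.0 to 128, above sampling noise, and each library was kept.

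Groups were compared with edgeR 4.0.16 in R 4.3.3. Counts were scaled by TMM, and genes were kept by filterByExpr (minimum count 10, minimum total 15). The minimum count acts there as a CPM cutoff, set at the median library size, in as many libraries as the smallest group has. A two-sided quasi-likelihood test with a group term was fitted to 10390 genes, with Benjamini-Hochberg adjustment over all of them and a threshold of 0.05. SE is the size of the log2 fold change divided by the square root of F, and 95% intervals use the total degrees of freedom. Exact permutation tests used log2 CPM with a prior count of 2. Alternatives were other scalings, DESeq2 1.42.0, limma-voom (limma 3.58.1), other low-count filters, Polr2g left out of library sizes, a replicate block, and fits without each library. The steps were tested on simulated data. Changes of several sizes were planted, and that run had to recover only the largest to pass. Recovery of the smaller ones is not reported here, so how often differences of the members' size are called is not given.

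Members and lists were chosen with earlier results of these data known. Values in every library were given for members with an unadjusted p under 0.05 or separate groups and for 13 pathway-defining members with a row in the table. From each list of other pathway genes up to 3 with the smallest p were named.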

Additional observations from a re-analysis of the deposited data

Results flagged for a closer look

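Among the 66 groups of 4 libraries that the 33 tested members give, 3 had 1 library far from the other 3 on the log2 CPM scale, where chance flags about 1 group in 20 (3.3 of 66). Irs2 in the POLR2G group had its lowest value in replicate 3, at 18.4 CPM, against 24.5 to 25.7 CPM in the other 3 POLR2G libraries (gap over range 0.856). Pik3r1 in the POLR2G group was lowest in the unnumbered library, at 0.778 CPM, against 1.49 to 1.59 CPM in the others (0.908), and rests on 13 to 31 counts. Slc37a4 in the GFP control group was lowest in replicate 4, at 333 CPM, against 352 to 356 CPM in the others (0.841).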

How the results depend on the processing

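No member was called under any alternative. Over all genes edgeR called 4, DESeq2 135, the fit on library totals 1, and the fits that left out 1 library 1 to 6: 1 without POLR2G replicate 1 or 4, 2 without the unnumbered POLR2G library or GFP control replicate 2, and 6 without GFP control replicate 1. Members with an unadjusted p under 0.05 numbered 5, and 3 to 7 when 1 library was left out. Cebpa, Pfkfb1 and Ppargc1a stayed under that unadjusted threshold in every alternative. Gbe1 did not without POLR2G replicate 1 or 4 or GFP control replicate 4. Sesn1 did not with the replicate block, nor without POLR2G replicate 4, the unnumbered POLR2G library or GFP control replicate 3 or 4. The lower means of 23 of 33 members became 26 of 33 on library totals, 20 of 33 with upper quartile scaling and 19 of 32 in the 6 libraries with shared replicate numbers, with or without the replicate block. Replicate numbers 1, 3 and 4 are shared. Deviations of same-numbered libraries correlated over genes at 0.0642, −0.0245 and 0.0361, against −0.0642 to 0.0508 in the other pairs of a POLR2G and a GFP control library. With 3 such pairs this cannot show whether same-numbered samples shared more than a number. The block called 2 genes, and the same 6 libraries without it 1, with Ppargc1a at −0.48, Sik2 at −0.13 and Akt2 at −0.42 or −0.43 in those fits, and Pcx at −0.044 with the block. Of 591 recomputed member values 550 kept their direction. The 41 that turned belong to 13 members near 0 or with few counts, as log2 fold changes. On library totals Gcgr was −0.014, Creb3l3 −0.024 and Khk −0.061. With limma-voom Sik1 was 0.020, Mdh1 0.00048 and Pygl −0.064. With upper quartile scaling Sik1 was 0.0044, Klf15 0.013 and Mdh1 0.0064. With the replicate block Sik1 was 0.103, Klf15 0.067 and Ldha 0.13, and without it, in those 6 libraries, 0.060, 0.065 and 0.066. Leaving out 1 library gave ranges of −0.20 to 0.072 for Foxo1, −0.13 to 0.013 for Foxo3, −0.14 to 0.20 for Sik1, −0.013 to 0.11 for Creb3l3, −0.12 to 0.11 for Klf15, −0.91 to 0.20 for Fbp1, −0.16 to 0.16 for Mdh1, −0.019 to 0.14 for Gys2, −0.22 to 0.85 for Pygl, −0.30 to 0.11 for Pfkfb3 and −0.055 to 0.067 for Khk. Others kept their sign but moved by over 1.5 times: −0.92 to −0.20 for Igfbp1, −0.80 to −0.088 for Tat, 0.075 to 0.55 for Pik3r1, 0.0998 to 0.38 for Cebpb, 0.052 to 0.21 for Insr, −0.33 to −0.0025 for Ldha, −0.20 to −0.073 for Pfkl and −0.091 to −0.018 for Ugp2, besides those given with their values above. The cause was not tested.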
